A study of Mus musculus with 14 samples.

Results

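The loci described here are the accessible regions assigned to 39 interferon-stimulated genes in splenic Tregs, among them the signalling genes Stat2, Irf1, Irf7 and Irf9, the antiviral effectors Isg15, Mx1 and Rsad2, and the immunity-related GTPases Irgm1, Irgm2 and Igtp. A region belonged to the set where its midpoint lay within 1000 bp of a start of one of these genes, which made it a promoter region, or lay further away and had such a gene as its nearest protein-coding start, which made it a distal region. On GRCm38 this gave 128 of the 67254 regions of the series, of which 41 were promoter and 87 distal regions, and no measured value entered the assignment. Whether a distal region acts on the gene it was assigned to was not tested. Below, a gene is said to rise or fall at a region where the accessibility of that region did. Of these, 123 held enough counts to be tested, namely all 41 promoter and 82 distal regions. The 5 regions that did not were 1 at Dtx3l, 1 at Ifit3, 2 at Ifit1 and 1 at Oasl2.

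Chromatin accessibility was measured by bulk ATAC-seq, in which a transposase cuts into open DNA, so that the number of reads over a region rises with how open it is. Rag1-/- hosts, which make no T or B cells of their own, were sublethally irradiated and given CD45.1+ WT BM mixed in equal parts with CD45.2+ BM, either from control (Foxp3CreAtg14+/fl) or from Foxp3CreAtg14fl/fl mice. Every group therefore carried the Foxp3Cre allele, which deletes floxed DNA in cells that express Foxp3, and the controls kept 1 floxed Atg14 allele beside an intact one. Atg14 is a subunit of the Vps34 complex that starts autophagosome formation. CD45.2+ CD4+Foxp3-YFP+ cells of C57BL/6 donors were sorted from the spleen as CD44low cTregs, the central or resting state, or CD44high eTregs, the effector state, with a further surface marker in the gate. Each state was measured in 3 control and 4 Atg14-deficient libraries, so that the 4 groups held 14 libraries in all. BM had reconstituted for 6 to 8 weeks before the sort. Foxp3CreAtg14fl/fl mice were in general 6 to 20 weeks old when used, a range that is not tied to these donors.

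Interferon-stimulated genes are switched on when interferon binds its receptor at the cell surface. Type I interferon acts through IFNAR and the kinases JAK1 and TYK2, which phosphorylate STAT proteins such as STAT2. STAT2 joins IRF9 in a complex that binds the interferon-stimulated response element (ISRE) in gene promoters. Type II interferon acts through JAK1 and JAK2, and its signal reaches DNA at the gamma-activated site (GAS). The products sense viral nucleic acid, block viral replication, conjugate or remove ISG15, and disrupt the vacuoles of intracellular pathogens. T cells respond to both interferons, and Tregs carry both receptors.

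The promoters are shown first because they carry the motif for which these genes are known. Windows of 250 bases before the start nearest to each promoter region were searched for GAAANNGAA, the first letters of the ISRE core, and for TTCNNNGAA, the GAS, on both strands (RefSeq starts and sequence, GRCm38). The ISRE letters were found before 19 of the 34 distinct member starts searched (55.9%), and at least 2 matches before 10 of them (29.4%). Over all 11665 starts with a promoter region the shares were 6.46% and 0.557%. The GAS letters were found before 9 member starts (26.5%) against 5.63% of all starts, and 2 pairs of ISRE and GAS matches among the members overlapped. In the distal regions, searched in 250 bases around the midpoint, ISRE matches were found in 11 of 82 (13.4%) against 10.9% of all distal regions, and GAS matches in 4 (4.88%) against 8.51%. A match is only a run of letters, and binding was not measured.

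The 4 promoters printed below were chosen because they show matches close to a start. Those of Isg15, Usp18 and Rtp4 held 3, 2 and 4 ISRE matches, the closest 66, 59 and 25 bases before the start, and that of Irgm2 held 1, at 64 bases. Each is written 5′ to 3′ in the direction of the gene, with the ISRE matches of either strand in capitals. The windows are chr4:156200819-156201068 (minus strand) for Isg15, chr6:121245656-121245905 (plus strand) for Usp18, chr16:23609669-23609918 (plus strand) for Rtp4 and chr11:58214727-58214976 (plus strand) for Irgm2, and none overlaps an exon.
Isg15: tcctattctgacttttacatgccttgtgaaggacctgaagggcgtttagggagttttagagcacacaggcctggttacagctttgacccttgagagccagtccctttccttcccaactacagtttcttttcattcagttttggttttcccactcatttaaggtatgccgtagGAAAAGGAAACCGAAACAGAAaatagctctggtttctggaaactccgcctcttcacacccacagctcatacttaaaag
Usp18: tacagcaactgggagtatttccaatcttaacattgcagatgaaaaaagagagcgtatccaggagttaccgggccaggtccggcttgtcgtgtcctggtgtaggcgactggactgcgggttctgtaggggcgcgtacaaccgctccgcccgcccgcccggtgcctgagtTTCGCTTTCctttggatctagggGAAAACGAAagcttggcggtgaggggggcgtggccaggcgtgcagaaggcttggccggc
Rtp4: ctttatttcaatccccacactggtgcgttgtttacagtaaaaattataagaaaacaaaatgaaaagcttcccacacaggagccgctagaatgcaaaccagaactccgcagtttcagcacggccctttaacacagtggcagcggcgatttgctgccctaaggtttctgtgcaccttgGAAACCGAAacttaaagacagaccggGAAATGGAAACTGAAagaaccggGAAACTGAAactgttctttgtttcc
Irgm2: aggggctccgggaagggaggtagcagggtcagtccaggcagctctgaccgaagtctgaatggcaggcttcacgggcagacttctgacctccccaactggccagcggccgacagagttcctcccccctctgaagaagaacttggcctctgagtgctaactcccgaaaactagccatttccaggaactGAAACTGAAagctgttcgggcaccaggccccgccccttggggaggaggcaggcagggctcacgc
In Isg15 the 3 matches run into each other and form 1 stretch, and in Rtp4 a pair of matches overlaps in the same way.

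Of the 39 genes, 33 had a promoter region and 32 a distal one. Ifi44, Ifit3, Oas2 and Slfn2 had distal regions only, Oas1a and Oasl1 had no region, and 5 genes (Irf9, Bst2, Rtp4, Eif2ak2 and Xaf1) had promoter regions only. A single promoter region served both Dtx3l and Parp9, which start close to each other, and Irf1 and Irgm2 held the most regions, with 9 each. The distal regions lay at a median of 12193 bp and at most 44826 bp from the start. Of these, 63 lay outside the gene they were assigned to, 22 in its introns and 1 each in a coding and a non-coding part of its exons. Whether another gene covered them was not checked. The median length was 409 bp in promoter and 311 bp in distal regions.

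The depth was 2242983 to 5548189 counts per library, and values are given as CPM, that is, scaled to the same total in every library. The promoters of the cTreg list parted the sorted states, while those of the eTreg list did not. Promoter regions of the cTreg genes Ccr7, Tcf7, Lef1, S1pr1 and Satb1 summed to 236–257 CPM in control cTregs and 239–278 CPM in Atg14-deficient cTregs, against 142–157 and 178–212 CPM in control and Atg14-deficient eTregs. Of the eTreg genes Icos, Klrg1, Prdm1, Maf, Itgae, Cd44 and Tigit all but Itgae had promoter regions, which summed to 284–320, 287–326, 293–328 and 323–364 CPM in the same order and overlapped between the states of each genotype. Foxp3, the factor whose reporter defined the sorted Tregs, and Cd4 and Ikzf2, of the same list, had no region within 1000 bp of a start, and the nearest region of Foxp3 was open in every library at 7.53 to 26.7 CPM. The B cell genes Cd79a, Ms4a1 and Pax5, the myeloid genes Csf1r, Itgam, Lyz2 and Siglech, and Ncr1 and Cd8a had no promoter region. The remaining promoter region of the CD8 list, at Cd8b1, held 10.3 to 21.4 CPM in cTregs and 1.54 to 6.83 CPM in eTregs. The summed promoter CPM of Ebf1, the only listed B cell gene with such regions, ranged from 1.56 to 17.2, and those of the myeloid list (Spi1 and Cd68) from 4.9 to 24.3 and of the NK list from 9.26 to 21.6, with overlap between all groups in each. Il2ra, Ctla4 and Cd3e, the Treg list's genes with a promoter region, summed to 68.7–84.2, 85.3–111, 56.8–66.9 and 69.4–76.4 CPM. The part of these lists in the results below was not tested. The promoter region of Atg14 held 16.8 to 35.2 CPM over all libraries, and since the sources used here do not say which exons the floxed allele removes, accessibility there checks no label.

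Promoters of interferon-stimulated genes were open in all 4 groups. The best-covered promoter region of each gene had a median of 41.8 CPM per kb over the 33 genes, beside 40.9 CPM per kb for all promoter regions, and 17 of the 33 lay above that median. Per kb the promoter of Rsad2 (viperin, which blocks viral genome synthesis) was the most open at 128 CPM per kb, followed by Ifih1 (MDA5, a sensor of double-stranded RNA) at 118 and Stat2 at 103. The least open were those of Slfn5 at 20.5, Dhx58 (LGP2, a regulator of RNA sensing) at 17.9 and Igtp at 15.8 CPM per kb.

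**Figure D1:**
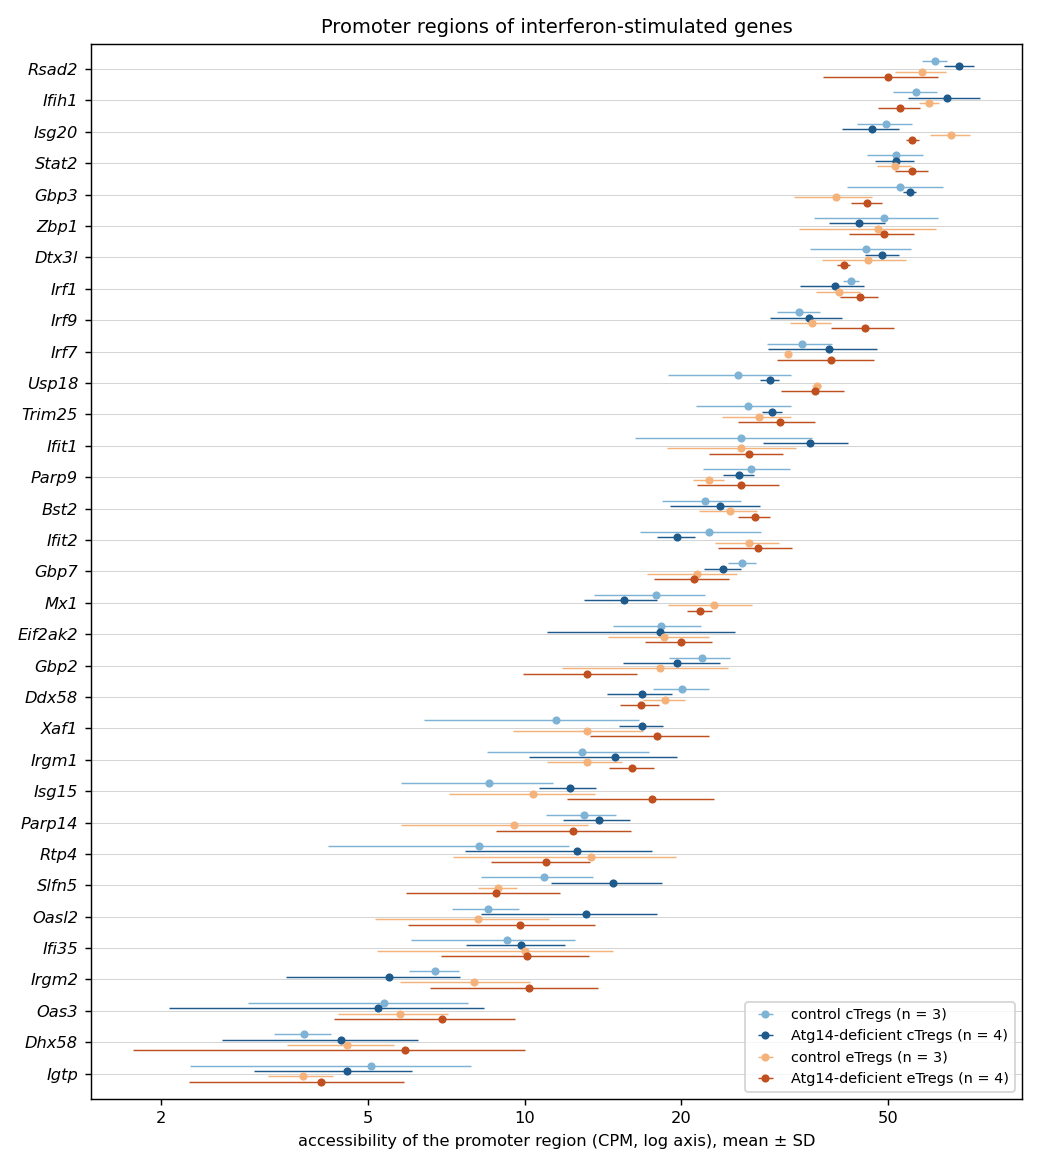
Accessibility of the best-covered promoter region of each of the 33 genes with one, in CPM on a log axis, ordered by mean level, as mean ± SD of the libraries of each of the 4 groups (n = 3 or 4). The genes span 4.35 CPM at Igtp to 59.3 CPM at Rsad2, and within a gene the groups lie close together compared with this span.

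Whether the loci open or close as cTregs become eTregs was asked first, with the mean of both genotypes compared between the states (7 against 7 libraries). A region was called at a Benjamini-Hochberg adjusted p below 0.05 over all 61366 tested regions and a log2 fold change beyond 0.5. None of the 41 member promoter regions was called, while 10.2% of all promoter regions were. DESeq2 also called 0, and 10 member promoter regions (24.4%) had an unadjusted p below 0.05, beside 32.4% of all promoter regions. With same-numbered libraries as a block 1 promoter region was called, that of Slfn5 (−0.52, SE 0.20, adjusted p = 0.0486), and 22.9% of all regions were called, against 18.9% without the block. The count was 1 without control cTreg replicate 2, Atg14-deficient cTreg replicate 2, control eTreg replicate 3 or Atg14-deficient eTreg replicate 3. The log2 fold changes of the promoter regions ran from −0.75 to 0.57, 20 above and 21 below zero, with a median of −0.04 beside 0.10 for all promoter regions. For 38 of the 41 the interval of 2 SE around the fold change stayed within 1 on the log2 scale, so that a change of that size lay outside it. Member promoters with an ISRE match had a median of 0.05 and those without 0.07.

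None of the signalling promoters was called between the states. Stat2, which carries the type I signal to DNA together with IRF9, held 46.4, 50.3 and 58.9 CPM in control cTregs and 49.5, 47.5, 51.5 and 57.8 in Atg14-deficient cTregs. It held 50.7, 55.6 and 47.9 CPM in control eTregs and 52.4, 59.0, 51.6 and 59.1 in Atg14-deficient eTregs. The 4 groups overlapped (chr10:128270161-128270670, log2 fold change 0.05, SE 0.10). The promoters of Irf1, a transcription factor induced by type II interferon, and of Irf7, the amplifier of type I interferon production, gave 0.04 (SE 0.11) and −0.04 (SE 0.14), and that of Irf9, the DNA-binding partner of the STATs, 0.21 (SE 0.12, adjusted p = 0.216). Within genotypes the Irf9 promoter gave 0.07 (SE 0.18) in control and 0.36 in Atg14-deficient cells (SE 0.16, unadjusted p = 0.0319, adjusted p = 0.145).

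3 promoter regions passed the adjusted p but not the fold change. Isg20, an interferon-induced RNA exonuclease, had 49.5 ± 6.04 CPM in control cTregs, 46.5 ± 5.84 in Atg14-deficient cTregs, 65.9 ± 5.76 in control eTregs and 55.6 ± 1.54 in Atg14-deficient eTregs (mean ± SD, here and below; chr7:78913638-78914244, log2 fold change 0.33, SE 0.10, adjusted p = 0.0174). Usp18, the protease that removes ISG15 and dampens IFNAR signalling, was at 25.7 ± 6.82, 29.6 ± 1.28, 36.4 ± 0.72 and 36.1 ± 5.01 CPM in the same order (chr6:121245676-121246074, 0.38, SE 0.13, adjusted p = 0.0332). Gbp3, a guanylate-binding protein, was at 52.6 ± 11, 55.0 ± 1.56, 39.7 ± 6.76 and 45.5 ± 3.04 CPM and so lower in eTregs (chr3:142560192-142560995, −0.34, SE 0.11, adjusted p = 0.0253). In each of them some cTreg library lay among the eTreg libraries.

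Distal regions moved in both directions. Of 82 tested, 11 were called (13.4%; 5 higher and 6 lower in eTregs), beside 21.3% of all distal regions (8.76% higher, 12.5% lower), and DESeq2 called 11. By role, the 5 genes of ubiquitin, ISG15 and ADP-ribose transfer held 4 of the 6 lower regions among 16 tested, at Trim25 and Usp18. The signalling genes held 2 higher regions of 12, both at Irf1, and the antiviral effectors 2 higher of 20, both at Mx1. The RNA and DNA sensors had 1 higher and 1 lower of 11, the Schlafen genes 1 lower of 4 and the GTPases 0 of 19. With same-numbered libraries as a block 14 were called, the 11 and 1 region each of Mx1 (0.88, adjusted p = 0.0393), Irf7 (0.89, adjusted p = 0.0415) and the GTPase gene Gbp2 (−0.69, adjusted p = 0.0447), while the share of all regions called went from 18.9% to 22.9%. Irgm2, with 8 distal regions, had none that was called. All called distal regions lay outside the gene they were assigned to except that of Ifih1, in an intron. The cTreg marker promoters, Cd8b1 and the summed promoters of Il2ra, Ctla4 and Cd3e, given above, fell with the same change of state in each genotype, and their part in these counts was not tested.

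**Figure D2:**
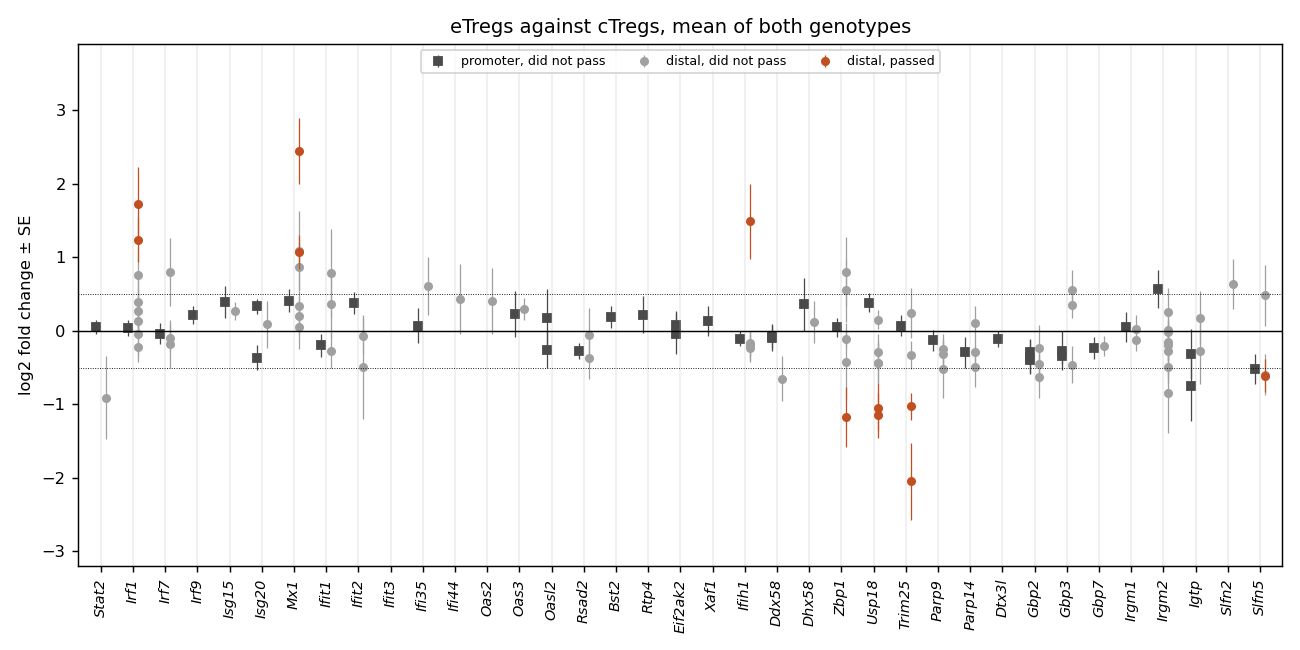
Log2 fold change of eTregs against cTregs with its SE for each tested region, by gene, with squares for promoter and circles for distal regions, orange where the region was called, and dotted lines at the cutoff of 0.5 in either direction. No square is orange, and the 11 orange circles lie at Irf1, Mx1, Ifih1, Zbp1, Usp18, Trim25 and Slfn5, above zero for 5 and below for 6.

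The smallest p belonged to a region 24938 bp downstream of the start of Trim25, the ubiquitin ligase that activates RIG-I. It held 21.5, 22 and 21.4 CPM in control cTregs, 31.1, 22.2, 23.1 and 17.3 in Atg14-deficient cTregs, 13.7, 8.92 and 8.29 in control eTregs and 13.2, 11.7, 13.2 and 9.76 in Atg14-deficient eTregs. All 7 eTreg libraries lay below all 7 cTreg libraries (chr11:89024080-89024603, log2 fold change −1.03, SE 0.18, adjusted p = 0.000156). Without a replicate block this was the only member region called in each genotype on its own, at −1.09 (SE 0.27, adjusted p = 0.0159) in control and −0.96 (SE 0.24, adjusted p = 0.0096) in Atg14-deficient cells. With same-numbered libraries as a block, the second Trim25 region (adjusted p = 0.000789 and 0.0126) and the Mx1 regions 20688 bp downstream (adjusted p = 0.041 and 0.00153) and 5475 bp upstream of the start (adjusted p = 0.0235 and 0.00105) were called in each genotype as well.

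A second Trim25 region, 23192 bp downstream and so next to the first, was thinner. It held 14.7, 7.66 and 9.81 CPM in control cTregs and 7.56, 11.7, 12.6 and 3.85 in Atg14-deficient cTregs, then 1.95, 3.67 and 0 CPM in control eTregs and 1.2, 6.28, 5.29 and 0.514 in Atg14-deficient eTregs. The control eTregs lay below both cTreg groups, while the Atg14-deficient eTregs overlapped the Atg14-deficient cTregs (chr11:89022446-89022745, −2.05, SE 0.52, adjusted p = 0.00963). The promoter region of Trim25 itself gave 0.07 (SE 0.14).

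Usp18 fell at 2 regions upstream of its start. At 2532 bp upstream the means were 6.68 ± 2.81 CPM in control cTregs, 6.31 ± 1.97 in Atg14-deficient cTregs, 2.43 ± 0.551 in control eTregs and 3.57 ± 1.32 in Atg14-deficient eTregs (chr6:121243274-121243475, −1.15, SE 0.31, adjusted p = 0.00873). At 17392 bp upstream they were 7.27 ± 0.681, 5.35 ± 1.13, 2.81 ± 0.83 and 3.24 ± 1.75 CPM (chr6:121228383-121228646, −1.05, SE 0.32, adjusted p = 0.0168). The Usp18 promoter had the opposite sign.

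Mx1, a dynamin-like GTPase that blocks influenza virus, rose at 2 distal regions. RefSeq records it as a transcribed pseudogene in the reference strain, in which the protein is truncated. The region 20688 bp downstream of its start held 0.489, 1.91 and 0.892 CPM in control cTregs, 1.26, 0, 0.526 and 1.28 in Atg14-deficient cTregs, 4.55, 5.25 and 3.97 in control eTregs and 3.6, 10.5, 5.03 and 5.14 in Atg14-deficient eTregs. It was near zero in cTregs and higher in all 7 eTreg libraries, without overlap (chr16:97442074-97442362, 2.45, SE 0.45, adjusted p = 0.000303). This rests on 0 to 8 counts per cTreg and 12 to 25 counts per eTreg library.

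The other lay 5475 bp upstream of the Mx1 start and held 8.8, 7.66 and 6.24 CPM in control cTregs, 8.4, 4.67, 4.21 and 10.3 in Atg14-deficient cTregs, 17.9, 15.7 and 11.2 in control eTregs and 19.8, 13, 12.7 and 17.2 in Atg14-deficient eTregs. The states did not overlap here either (chr16:97468047-97468715, 1.07, SE 0.23, adjusted p = 0.00112). It was the only 1 of the 11 called regions with an ISRE match, printed for that reason (chr16:97468257-97468506, plus strand, match in capitals), and the match adjoins a run of AG repeats.
Mx1 upstream region: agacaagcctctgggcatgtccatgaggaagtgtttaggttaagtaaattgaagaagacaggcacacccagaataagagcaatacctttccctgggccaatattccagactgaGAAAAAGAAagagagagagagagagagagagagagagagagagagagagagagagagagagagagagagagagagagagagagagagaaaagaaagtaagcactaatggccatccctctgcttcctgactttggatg

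Irf1 rose at 2 regions far downstream of its start. At 33316 bp it held 1.96, 2.87 and 0.892 CPM in control cTregs, 4.62, 2.34, 3.16 and 3.85 in Atg14-deficient cTregs, 5.2, 4.2 and 4.69 in control eTregs and 6.59, 5.86, 9.53 and 11.6 in Atg14-deficient eTregs. The highest cTreg library lay within the control eTregs, and the Atg14-deficient eTregs lay above all other libraries (chr11:53803527-53804052, 1.24, SE 0.31, adjusted p = 0.00488). At 39946 bp the means were 2.37 ± 0.548, 0.757 ± 1.06, 3.9 ± 1.52 and 5.47 ± 3.62 CPM (chr11:53810233-53810606, 1.73, SE 0.50, adjusted p = 0.014).

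The remaining 3 called regions had adjusted p values closer to the threshold. An intron region of Ifih1 rose from 0.648 ± 0.748 and 2.88 ± 2.4 CPM in control and Atg14-deficient cTregs to 2.71 ± 1.46 and 6.74 ± 1.99 CPM in the corresponding eTregs (chr2:62618945-62619336, 1.49, SE 0.51, adjusted p = 0.0367), with values of 1.3 to 2.09 over 20 other settings. This call was lost without control cTreg replicate 2 or 3, Atg14-deficient cTreg replicate 1 or 3, control eTreg replicate 1 or 2, or Atg14-deficient eTreg replicate 1 or 4. The next 2 fall outside the rule for named regions and were chosen after their values were seen. A region 17245 bp upstream of Zbp1, a sensor of Z-form nucleic acid, fell (chr2:173236001-173236334, −1.17, SE 0.41, adjusted p = 0.0379), with all 7 eTreg libraries below all cTreg libraries. Its call was lost in 11 of 20 other settings, each a fit without 1 library, namely any control library, Atg14-deficient cTreg replicate 1 or 3, or Atg14-deficient eTreg replicate 1, 2 or 3. A region 4486 bp upstream of Slfn5, a member of the Schlafen family, also fell on the mean of both genotypes (chr11:82947346-82947886, −0.61, SE 0.22, adjusted p = 0.0456). Within genotypes the change was −1.06 (SE 0.34, adjusted p = 0.0624) in control and −0.16 (SE 0.28) in Atg14-deficient cells. Its call was lost in 9 of 21 other settings, with loess offsets and without control cTreg replicate 1 or 3, Atg14-deficient cTreg replicate 3 or 4, control eTreg replicate 1 or 3, or Atg14-deficient eTreg replicate 1 or 2.

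**Figure D3:**
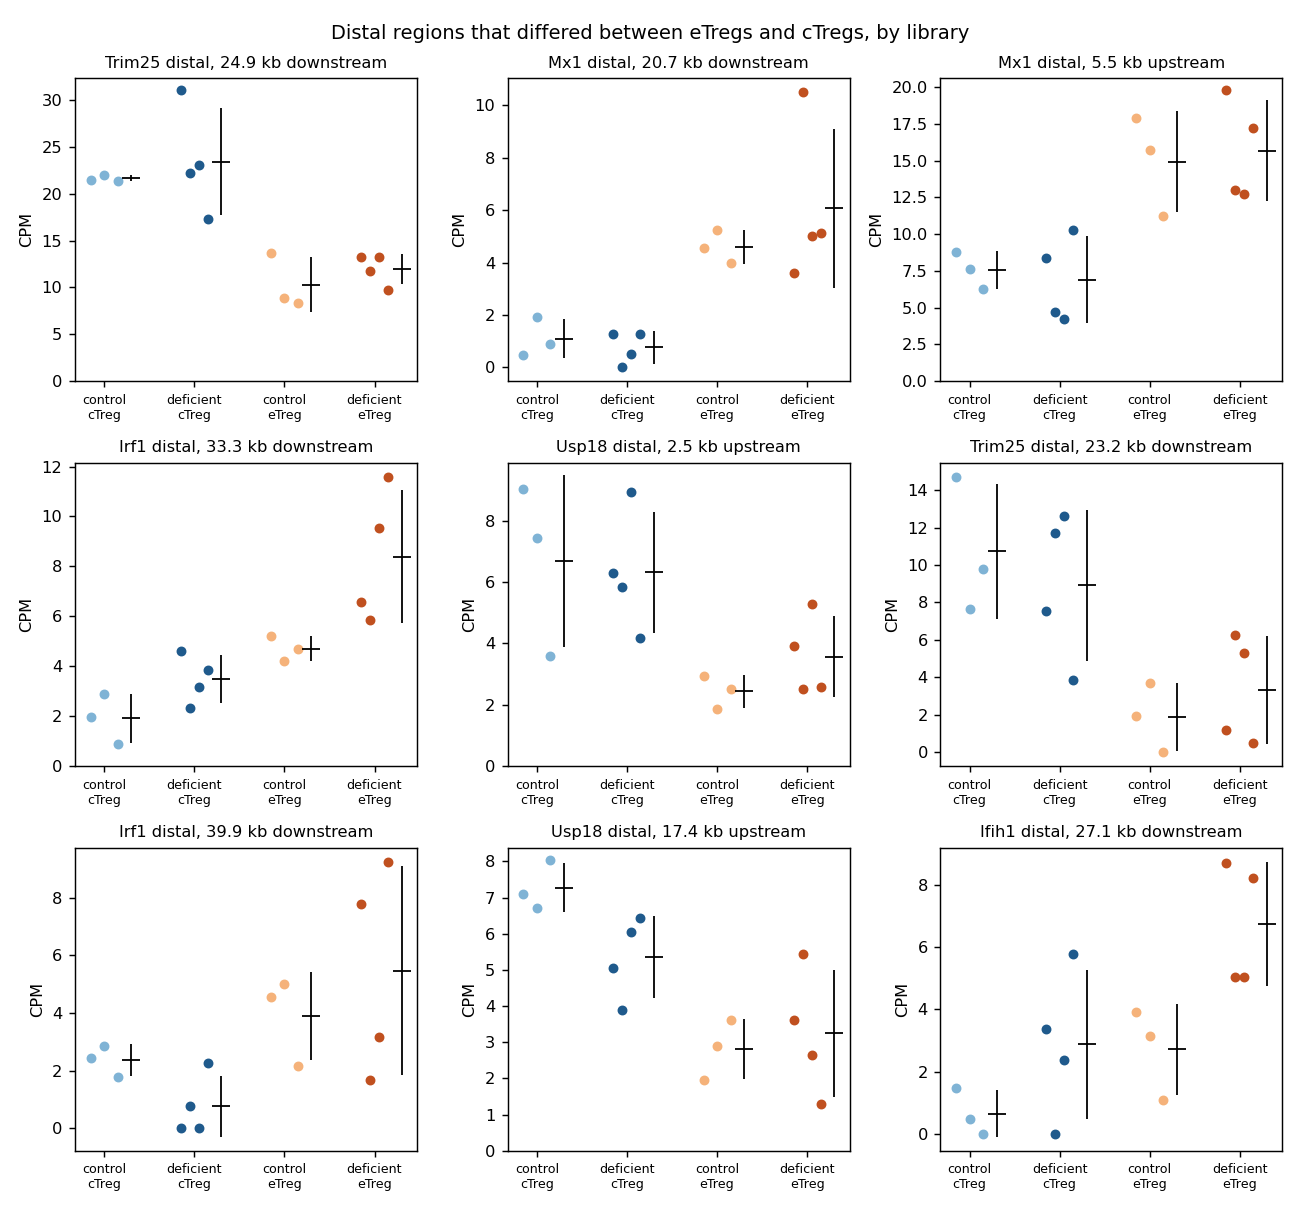
CPM of each library (points) with mean ± SD (bars) in the 4 groups for 9 of the 11 called distal regions. The Mx1 and Irf1 regions are higher in eTregs and the Trim25 and Usp18 regions lower, and no eTreg point reaches the cTreg points in the region of Trim25 at 24938 bp or in those of Mx1.

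Over all tested members, 4 of 123 regions (3.25%) did not overlap between the states, the 2 Mx1 regions above and the Trim25 and Zbp1 regions below, beside 4.99% of all tested regions. The share of member regions that parted the states was thus not above the background.

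The states were then compared within each genotype. In control cells 0 of 41 promoter regions was called (2.63% of all promoter regions; DESeq2 also 0; 3, or 7.32%, at an unadjusted p below 0.05, beside 15.3% of all), and 1 of 82 distal regions, that of Trim25 (1.22% beside 6.00% of all distal regions; DESeq2 4). The Trim25 call was lost without control cTreg replicate 1 or control eTreg replicate 2 or 3. The distal count was 0 without the first and the last of these, it became 3 without control cTreg replicate 2, and 2 without control cTreg replicate 3, Atg14-deficient cTreg replicate 4 or Atg14-deficient eTreg replicate 4. With same-numbered control libraries as a block 6 distal regions were called (2 higher, 4 lower), and 10.4% of all regions were, against 5.3% without the block. In Atg14-deficient cells 0 of 41 promoter regions was called (7.60% of all; DESeq2 also 0; 9, or 22.0%, at an unadjusted p below 0.05, beside 26.9% of all) and 7 of 82 distal regions (8.54% beside 10.4% of all), 6 higher and 1 lower (4.07% and 6.34% of all). With the same-numbered eTreg and cTreg libraries taken as pairs, 1 promoter region, that of Slfn5 (chr11:82952585-82953120, −0.76, SE 0.26, adjusted p = 0.0404), and 9 distal regions (6 higher, 3 lower) were called, while the share of all regions called was 15.5%, against 9.81% without the pairs. The promoter count was 1 without Atg14-deficient eTreg replicate 2 and 2 without Atg14-deficient eTreg replicate 3. Without Atg14-deficient cTreg replicate 3 the distal count was 3, and without Atg14-deficient eTreg replicate 3 or 4 it was 4.

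The 7 distal regions called in Atg14-deficient cells were the Trim25 region, the 2 of Irf1, the 2 of Mx1 and 1 each near Isg15 and Oas3. The last 2 are again outside the rule for named regions. The region 2533 bp upstream of Isg15, the ubiquitin-like modifier, held 32.8, 34.9 and 33.0 CPM in control cTregs and 33.8, 33.9 and 33.7 in control eTregs. It held 26.9, 31.1, 30.8 and 22.5 CPM in Atg14-deficient cTregs and 35.1, 44.8, 40.2 and 40.8 in Atg14-deficient eTregs. The control libraries of both states lay between those of the Atg14-deficient states, which did not overlap (chr4:156202990-156203713, 0.53, SE 0.16, adjusted p = 0.0303). In an intron of Oas3, an enzyme that makes the activator of RNase L, the means were 28.4 ± 1.18 and 24.2 ± 5.38 CPM in control and Atg14-deficient cTregs and 27.5 ± 5.52 and 37.3 ± 9.92 CPM in eTregs (chr5:120775307-120776090, 0.63 in Atg14-deficient cells, SE 0.20, adjusted p = 0.0437). The Isg15 call was lost in 6 and the Oas3 call in 9 of 22 other settings, mostly fits without 1 library.

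The second question was whether loss of Atg14 changed the loci within a state. In eTregs no member region passed the adjusted p, at which 0.0228% of all regions did, and DESeq2 passed 0 members as well. An unadjusted p below 0.05 was found at 2 promoter member regions (4.88% beside 9.35% of all promoter regions) and 7 distal ones (8.54% beside 7.54% of all distal regions). The study's cutoff for this contrast, a log2 fold change beyond 0.5 and an unadjusted p under 0.05, was met by 1 of 41 promoter regions, that of Isg15 (2.44% beside 4.11% of all promoter regions), and by 6 of 82 distal regions (7.32% beside 6.96%), all higher in Atg14-deficient eTregs (5.02% of all distal regions were higher, 1.94% lower). The median log2 fold change was 0.07 over member promoter regions (27 above and 14 below zero), beside 0.01 over all, and 0.17 over member distal regions (58 above, 24 below), beside 0.09. Scaling bore on this direction. With TMM, DESeq2's size factors and loess offsets the median was 0.01, 0.03 and 0.05 over member promoter regions and 0.11, 0.13 and 0.06 over member distal regions. Of all regions past the cutoff 72.2% were higher with total counts, 60.1% with TMM, 63.0% with DESeq2's size factors and 57.0% with loess offsets, and the higher member distal regions numbered 6, 4, 4 and 3, with none lower in these. With same-numbered libraries as a block 3 member distal regions were higher and 1 lower (Usp18, −0.89, SE 0.42, unadjusted p = 0.0442), and 67.1% of all regions past the cutoff were higher. The count was 3 without control eTreg replicate 3. The cTreg marker promoters were also higher in Atg14-deficient than in control eTregs, at 178–212 against 142–157 CPM without overlap, as were those of Il2ra, Ctla4 and Cd3e, and their part in this result was not tested.

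At the Isg15 promoter, whose sequence is given above, the libraries held 8.46, 14.2 and 8.65 CPM in control eTregs and 16.8, 10.5, 19.6 and 23.6 in Atg14-deficient eTregs. Atg14-deficient replicate 2 lay among the controls (chr4:156200702-156201010, log2 fold change 0.77, SE 0.30, unadjusted p = 0.0147, adjusted p = 0.528). The region fell short of the cutoff without control eTreg replicate 1 or 3 or Atg14-deficient eTreg replicate 4. The count of promoter regions past the cutoff fell to 0 without control eTreg replicate 1 or Atg14-deficient eTreg replicate 4, rose to 2 without Atg14-deficient eTreg replicate 1, and rose to 3 without control eTreg replicate 2 or Atg14-deficient eTreg replicate 2.

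The distal region upstream of Slfn5 had the smallest p. It held 3.9, 7.87 and 6.49 CPM in control eTregs and 10.2, 10.9, 15.4 and 15.4 in Atg14-deficient eTregs, without overlap (log2 fold change 1.08, SE 0.32, unadjusted p = 0.00222, adjusted p = 0.37). In cTregs it held 13 ± 2.56 CPM in control and 14.4 ± 5.05 CPM in Atg14-deficient cells, so that control eTregs stood apart from the 3 other groups.

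A region 5609 bp upstream of Trim25 held 6.51, 8.92 and 7.21 CPM in control eTregs and 12, 11.7, 14.3 and 16.4 in Atg14-deficient eTregs (chr11:88993603-88993985, 0.85, SE 0.27, unadjusted p = 0.00382, adjusted p = 0.413). In cTregs it held 11 ± 1.74 and 15.0 ± 1.32 CPM (0.45, unadjusted p = 0.101). In each state all Atg14-deficient libraries lay above all controls.

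Irgm2, an immunity-related GTPase of vacuole defence, rose past the cutoff at a region 15759 bp downstream. It held 0, 0.787 and 0.721 CPM in control eTregs and 2.4, 0.837, 3.18 and 3.6 in Atg14-deficient eTregs, which rests on 0 to 4 counts per control and 2 to 14 counts per Atg14-deficient library (chr11:58230621-58230852, 2.17, SE 0.79, unadjusted p = 0.0101, adjusted p = 0.49). It was also higher in Atg14-deficient cTregs, at 0.875 ± 0.395 CPM in control and 5.0 ± 2.91 CPM in Atg14-deficient cells (2.40, SE 0.74, unadjusted p = 0.00285, adjusted p = 1.0).

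The Ifih1 intron region met the cutoff in both states, but in eTregs not with same-numbered libraries as a block, with loess offsets, or without control eTreg replicate 2 or 3 or Atg14-deficient eTreg replicate 1 or 4, and in cTregs not without control cTreg replicate 2 or 3 or Atg14-deficient cTreg replicate 4. It held 3.9, 3.15 and 1.08 CPM in control eTregs and 8.69, 5.02, 5.03 and 8.22 in Atg14-deficient eTregs (1.37, SE 0.64, unadjusted p = 0.0412, adjusted p = 0.607), and the change in cTregs was 1.94 (SE 0.81, unadjusted p = 0.0235). The change in cTregs ran from 1.35 to 3.12 over 20 other settings and rests on 6, 2 and 0 counts in control cTregs. Irf1 held the other 2 distal regions. That at 24745 bp downstream of the start held 20.2, 31.5 and 23.4 CPM in control eTregs and 34.2, 25.1, 39.2 and 43.7 in Atg14-deficient eTregs, with overlap (chr11:53794788-53795648, 0.51, SE 0.20, unadjusted p = 0.0165, adjusted p = 0.534), a fold change just past the cutoff. That at 33316 bp, which is outside the rule for this contrast, gave 0.85 (SE 0.40, unadjusted p = 0.0429, adjusted p = 0.613). Neither met the cutoff with TMM, DESeq2's size factors, loess offsets or the block, nor without control eTreg replicate 1 or 3 or Atg14-deficient eTreg replicate 3 or 4, and that at 33316 bp also not without control eTreg replicate 2.

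**Figure D4:**
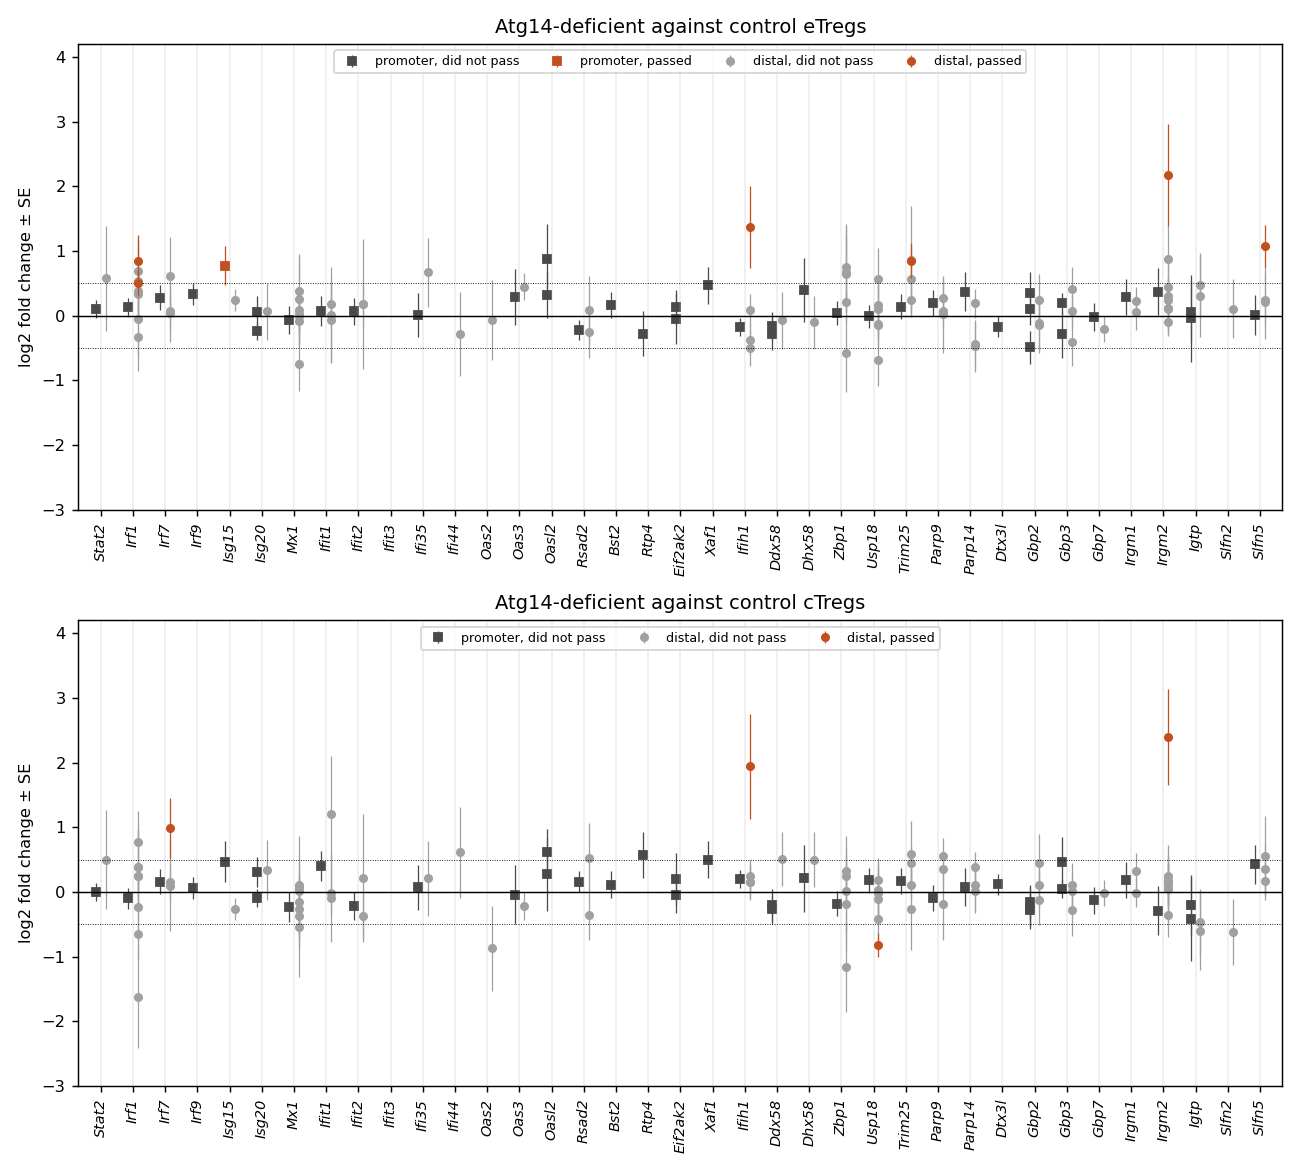
Log2 fold change of Atg14-deficient against control cells with its SE for each tested region, in eTregs (upper panel) and cTregs (lower panel), drawn as for the states, with orange for regions past an unadjusted p below 0.05 and a fold change beyond 0.5. In eTregs 1 square and 6 circles are orange, all above zero, and in cTregs 4 circles are, 3 above and 1 below.

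The promoter of Irf9 held 39.4, 33.6 and 33.9 CPM in control eTregs and 37.5, 43.5, 46.9 and 52.1 in Atg14-deficient eTregs (chr14:55603848-55604576, 0.34, SE 0.17, unadjusted p = 0.0497, adjusted p = 0.627). It stayed under the fold-change cutoff, and Irf9 lies 8.04 Mb from Atg14 on the same chromosome. The promoters of Stat2, Irf1 and Irf7 gave 0.11 (SE 0.14), 0.13 (SE 0.15) and 0.28 (SE 0.19). In 29 of the 41 promoter regions the interval of 2 SE stayed within 1 on the log2 scale, while it did so in 34 of the 82 distal regions, so that for most distal regions a change of that size was within the interval.

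In cTregs no member region passed the adjusted p, at which 0.0163% of all regions did, and DESeq2 passed 0 members. By the study's cutoff 0 of 41 promoter regions (1.89% of all) and 4 of 82 distal regions (4.88% beside 3.74%) differed, 3 higher and 1 lower in Atg14-deficient cTregs (2.32% and 1.42% of all). Of all regions past the cutoff 59.6% were higher with total counts, 53.6% with TMM, 56.2% with DESeq2's size factors and 49.0% with loess offsets, while 3 member distal regions were higher and 2 lower with each of the latter. Leaving out control cTreg replicate 1 or 3, or Atg14-deficient cTreg replicate 2 or 3, brought 1 promoter region past the cutoff, and leaving out control cTreg replicate 2 brought 2. The summed promoters of Il2ra, Ctla4 and Cd3e were higher in Atg14-deficient than in control cTregs, 85.3–111 against 68.7–84.2 CPM, and their part in this result was not tested.

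The smallest p was at a region 26533 bp downstream of Usp18. It held 40.3, 37.3 and 43.7 CPM in control cTregs and 18.5, 22.6, 25.2 and 24.4 in Atg14-deficient cTregs, all of the latter below all of the former (chr6:121271981-121272897, −0.82, SE 0.18, unadjusted p = 9.72e-05, adjusted p = 0.298). In eTregs it held 35.8, 34.6 and 35.3 CPM in control and 26.7, 29.3, 40.8 and 31.3 CPM in Atg14-deficient cells, which overlapped. A region 2629 bp upstream of Irf7 was the third higher one beside those of Irgm2 and Ifih1, at 3.63 ± 1.07 CPM in control and 7.52 ± 2.87 CPM in Atg14-deficient cTregs (chr7:141268957-141269149, 0.99, SE 0.46, unadjusted p = 0.038), and fell short of the cutoff without control cTreg replicate 1 or 3 or Atg14-deficient cTreg replicate 1 or 4. The Irf1 region at 39946 bp gave −1.62 (SE 0.80, unadjusted p = 0.0526) and a region 19363 bp upstream of Parp9, a mono-ADP-ribosyltransferase partner of Dtx3l, gave 0.55 (chr16:35918717-35919497, SE 0.29, unadjusted p = 0.0658), which did not pass. The Irf1 region held 0, 2, 0 and 7 counts in the Atg14-deficient cTreg libraries and gave −3.19 to −1.14 over 20 other settings. It met the cutoff in 8 of these 20, and the Parp9 region did so in 2 of 22.

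**Figure D5:**
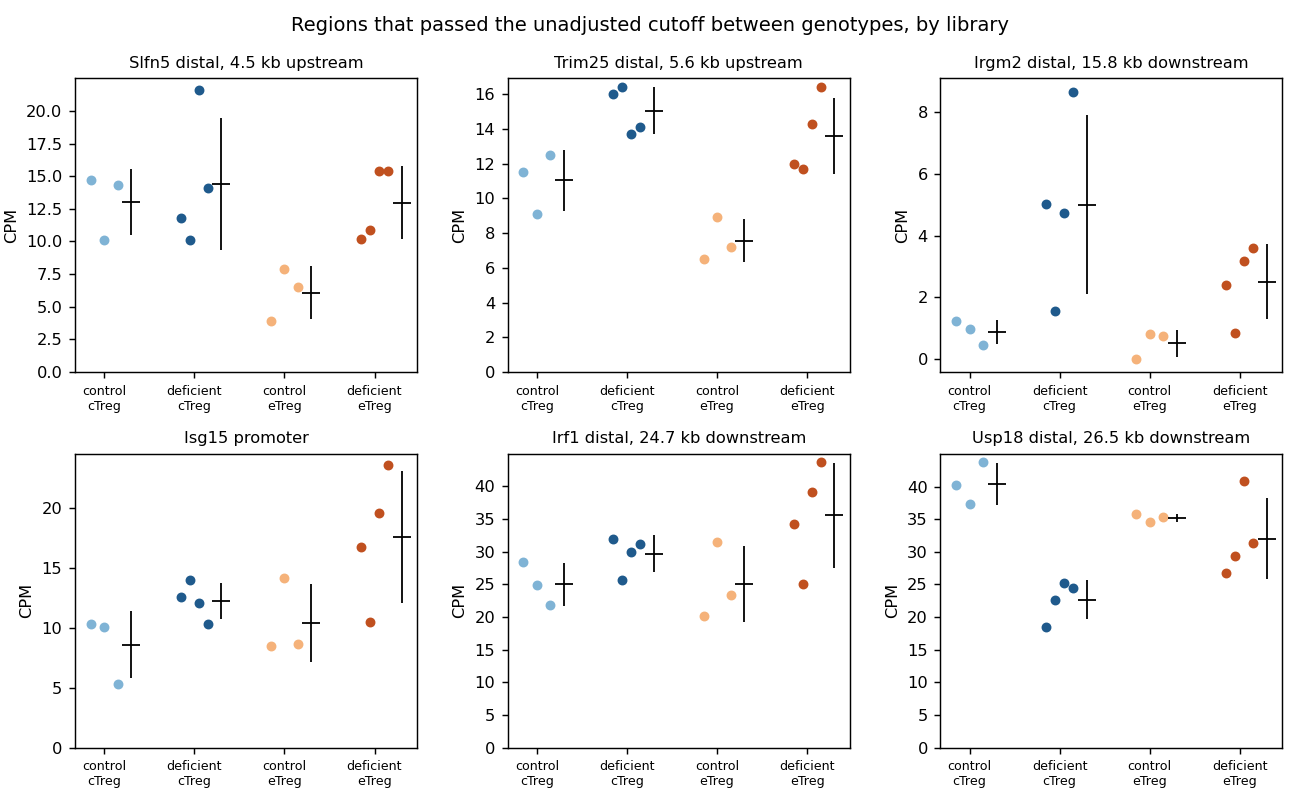
CPM of each library (points) with mean ± SD (bars) in the 4 groups for 5 regions past the unadjusted cutoff in eTregs and for the Usp18 region of cTregs. The Slfn5 and Trim25 points of Atg14-deficient eTregs lie above those of control eTregs, those of the Isg15 promoter overlap, and the Usp18 points of Atg14-deficient cTregs, 18.5 to 25.2 CPM, lie below those of every other group.

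By separation alone, 12 of 123 member regions (9.76%) did not overlap between control and Atg14-deficient eTregs, 8 higher and 4 lower in the latter, beside 8.48% of all tested regions. In cTregs 9 (7.32%) did not, 4 higher and 5 lower, beside 5.50%.

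Whether the genotype difference itself differed between the states was tested as an interaction. At the adjusted p 0 members and 0.00% of all regions passed, also with DESeq2 for the members. At the unadjusted cutoff 0 of 41 promoter regions (2.80% of all) and 5 of 82 distal regions (6.1% beside 3.11%) passed, all with a larger value in eTregs (1.84% of all were larger in eTregs, 1.27% smaller). They were at Irf1, 39946 bp downstream (2.16, SE 1.01, unadjusted p = 0.042), Slfn5 (0.90, SE 0.44, unadjusted p = 0.0495), Usp18, 26533 bp downstream (0.69, SE 0.26, unadjusted p = 0.0116), Oas3 (0.68, SE 0.31, unadjusted p = 0.0356) and Isg15, 2533 bp upstream (0.52, SE 0.24, unadjusted p = 0.0368, adjusted p = 1.0). The Usp18 region met the cutoff in all 21 other settings and the 4 others in 8 to 13 of 20 or 21. With same-numbered libraries as a block these 5 passed, as did a distal region of Ifih1 (−0.62, SE 0.29) and the Rtp4 promoter region (−0.90, SE 0.41), both smaller in eTregs. Of all regions 2771 then passed the unadjusted cutoff, against 1871 without the block. The distal count was 3 with TMM, DESeq2's size factors or loess offsets. It was 1 without control eTreg replicate 3, 3 without Atg14-deficient eTreg replicate 1 or 4, and 2 without control cTreg replicate 2, Atg14-deficient cTreg replicate 1 or 2, or control eTreg replicate 1.

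The upstream parts of the pathway were described from lists of genes that are not members. Of 35 distal regions nearest to receptor genes, 1 was higher and 10 lower in eTregs (31.4%). Most of the lower ones were at Ifngr1 and Il10rb, and those of Il10rb, Ifnar1 and Ifngr2 lie close together on chromosome 16. Among them were the only lower region of Ifnar1, which encodes a type I interferon receptor chain (chr16:91448180-91448455, −1.91, SE 0.32), and a region of Ifngr2, of the type II receptor (chr16:91522371-91522836, −1.62, SE 0.27). Of 37 distal regions near the kinase genes Jak1, Jak2 and Tyk2, 1 was higher and 14 lower (40.5%). Most of the lower ones lay near each other at Jak1, the rest at Jak2 and none at Tyk2. Jak1 at chr4:101175242-101175665 is the example of smallest p (−1.71, SE 0.24). The other lists gave 7 higher and 15 lower of 101 for the other IRF genes and their binding partners, 2 and 4 of 39 for nucleic acid sensing, and 1 and 7 of 39 for negative regulators such as Socs1, beside 8.76% higher and 12.5% lower over all distal regions. Of their 50 promoter regions 7 were called (14% beside 10.2% of all promoter regions). Those of Il10rb (−0.92), Irf4 (−0.84) and Tlr7 (2 regions, −1.53 and −1.50) fell and those of Traf3 (0.58), Samhd1 (0.58) and Pias1 (0.54) rose. In eTregs the unadjusted genotype cutoff was met by 3 of 35, 3 of 37, 10 of 101, 3 of 39 and 1 of 39 distal regions in the same order, all higher in Atg14-deficient cells, beside 6.96% of all distal regions (5.02% higher). None passed the adjusted p. Over the 5 lists 20 of 251 distal regions met the cutoff with total counts, all higher, 17 with TMM or DESeq2's size factors, all higher, and 19 with loess offsets, 18 of them higher. The last of the counts by list was at Socs1, the inhibitor of JAK kinases (chr16:10683192-10683917, 1.55, SE 0.37, adjusted p = 0.258), and 3 of 50 promoter regions met it (6.0% beside 4.11% of all promoter regions), those of Ikbke (1.01, adjusted p = 0.577), Socs3 (0.72, adjusted p = 0.385) and Adar (0.92, adjusted p = 0.554).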

How the data were processed

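ATAC-seq reads of 14 libraries were processed by the authors, who trimmed them, aligned them with BWA, removed duplicates with Picard, corrected read positions for the Tn5 offset, selected short nucleosome-free fragments, ran MACS2 on every library, merged the peaks shared by enough replicates and counted reads over them with bedtools. The submitters' processing notes also name cutadapt 1.9, Picard 1.65, MACS2 2.1.0.20150603 and SAMtools. The deposited table holds raw counts, not normalized. The methods name mm9 and the submitters' notes GRCm38, and the coordinates fit GRCm38: all 67207 regions on chromosomes lie inside it, and a region lies within 200 bp of 49.8% of protein-coding starts (3.5% when shifted by 20000 bp). Positions are printed counted from 1.

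Columns were matched to groups through the sample titles in the labels. Starts were those of RefSeq transcripts of protein-coding genes on GRCm38.p6, with that of Mx1 added. Counts were scaled by library total and filtered by edgeR's filterByExpr, and 1 quasi-likelihood model with 4 group coefficients was fitted to all libraries and all 61366 regions that passed (edgeR 4.0.16, limma 3.58.1, R 4.3.3, common coefficient of biological variation 25.6%). Unadjusted p values are also edgeR's. DESeq2 1.42.0 was an alternative. Summaries, the motif search and plots used Python 3.11.15 with NumPy 2.4.6, pandas 2.3.3 and matplotlib 3.10.9. The fit was tested on simulated counts. Even numbers make up 82.0% of the counts, as they would where both read ends of a fragment are counted, so that the precision is lower than the counts alone would give.

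The gene list, the pathway and marker lists and the rule for named regions were chosen with earlier results of these data known. A few genes of the pathway and marker lists are not reported here. Named were the 12 member regions with the smallest p between states, the 6 with the smallest p between genotypes in each state, and the best-covered promoter regions of Stat2, Irf1, Irf7 and Irf9. The study counts 3 control and 4 Atg14-deficient chimeras, as many as the libraries of each state. Which eTreg and cTreg libraries share a mouse is not given in the sources used here, and p-values measure the spread between these libraries. Same-numbered eTreg and cTreg libraries deviated together from their group means in Atg14-deficient cells, with a correlation of 0.119 to 0.243 in all 4 pairs against −0.187 to 0.0963 for other numbers, and were taken as pairs there on this ground alone. The main fit did not use these pairs, and counts with pairs are given beside it. The alternatives were TMM, DESeq2's size factors, loess offsets, no filter, at least 10 counts in every library, a fold-change cutoff of 1, the DESeq2 Wald test, only the groups compared, a replicate block, a promoter window of 500 bp, distal regions within 50 kb, and each library left out.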

Additional observations from a re-analysis of the deposited data

Results flagged for a closer look

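Among 48 groups of 4 libraries tested at the named regions, 2 held a library far from the others, and chance flags about 1 in 20 groups. The Irf1 promoter held 31.1 CPM in Atg14-deficient cTreg replicate 1, against 42.0 to 42.4 CPM in the 3 others. The Irf9 promoter held 26.9 CPM in Atg14-deficient cTreg replicate 2, against 37.3 to 38.6 CPM in the 3 others.

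The region 2533 bp upstream of Isg15 had a genotype difference of opposite direction in the states. All Atg14-deficient libraries lay above the controls in eTregs (35.1 to 44.8 CPM against 33.7 to 33.9) and below them in cTregs (22.5 to 31.1 CPM against 32.8 to 34.9). The interaction, tested with edgeR's quasi-likelihood test over all regions, was 0.52 on the log2 scale (SE 0.24) and did not pass (adjusted p = 1.0). The region was singled out by its values.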

How the results depend on the processing

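The counts of member regions moved with several settings. Requiring at least 10 counts in every library left 3 distal calls between states over both genotypes, 2 in control and 4 in Atg14-deficient cells, and 3 and 1 past the unadjusted genotype cutoff in eTregs and cTregs. Fewer regions were then tested. Of the distal regions called between states, both of Irf1, both of Usp18, the thinner one of Trim25, the downstream one of Mx1 and those of Ifih1 and Zbp1 dropped out. A fold-change cutoff of 1 left 4 distal calls between states in Atg14-deficient cells, 0 promoter and 3 distal regions by genotype in eTregs, 2 distal in cTregs and 1 in the interaction. TMM gave 2 promoter regions by genotype in eTregs and loess offsets 3 distal ones. TMM, DESeq2's size factors and loess offsets each gave 3 distal regions in the interaction. In control cells the distal state calls were 2 with only the groups compared and 4 with the DESeq2 Wald test. The cause was not tested. Distal regions within 50 kb were all of them, so that this limit changed nothing.

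With same-numbered libraries as a replicate block, the counts were 1 promoter region between states over both genotypes (Slfn5, −0.52, SE 0.20, adjusted p = 0.0486), 6 distal regions between states in control cells (2 higher, 4 lower), and 1 promoter region in the interaction (Rtp4, −0.90). In Atg14-deficient cells the block gave 1 promoter region. Other totals stayed within 1.5 times, but directions mixed. Past the genotype cutoff in eTregs 3 distal regions were higher and 1 lower (Usp18, −0.89), and in the interaction 5 were larger and 1 smaller in eTregs (Ifih1, −0.62). Same-numbered control eTreg and cTreg libraries correlated at 0.0543 to 0.209, above the −0.2 to −0.0116 of other numbers but not all over 0.1, so that pairing was not taken as shown there. Control with Atg14-deficient libraries gave −0.217 to 0.0914 in cTregs and −0.203 to 0.0118 in eTregs and share only a number.

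Leaving out each library in turn gave 0 to 1 promoter and 8 to 12 distal calls between states over both genotypes, 0 to 3 distal in control, and 0 to 2 promoter and 3 to 7 distal in Atg14-deficient cells. By genotype it gave 0 to 3 promoter and 3 to 7 distal regions in eTregs and 0 to 2 and 3 to 6 in cTregs, and in the interaction 0 to 1 and 1 to 7. Of the fold changes of the named regions under all settings, 537 kept direction and side. In 32 the region lost its call or cutoff, 8 of them Ifih1 between states, 17 in eTregs (Irf1 8, Ifih1 6, Isg15 promoter 3) and 7 in cTregs (Irf7 4, Ifih1 3), and in 10 it newly met the cutoff in cTregs (Irf1 8, Parp9 2). The 5 that reversed, all near zero, were the Irf1 promoter between states at −0.01 without Atg14-deficient cTreg replicate 1 and −0.0 without control eTreg replicate 2, and the Irf7 promoter at 0.04 without Atg14-deficient cTreg replicate 2, 0.0 without Atg14-deficient eTreg replicate 2 and 0.01 without Atg14-deficient eTreg replicate 3, in ranges of −0.01 to 0.06 and −0.09 to 0.04. Several distal regions held under 10 counts in a library, among them most of those called between states, which limits their precision.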
